A study of Caenorhabditis elegans with 2 samples.

Results

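The CDC-48 ATPase and its cofactors are here 5 genes of Caenorhabditis elegans, taken by symbol: cdc-48.1 and cdc-48.2, which encode the ATPase, and ufd-1, npl-4.1 and npl-4.2, which encode its ubiquitin-binding cofactors. They are 5 of the 19973 nuclear protein-coding genes in the annotation. The genes were chosen on measured values of these same libraries, in which cdc-48.1 already stood out, so the strength of its peaks is a description and carries no test. For each gene, every deposited peak with its summit in the gene or within 2 kb of it on either side was taken, which gave 39 of the 103201 peaks in the authors' ranked list.

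CDC-48, known as p97 or VCP in mammals, is a ring-shaped AAA ATPase that pulls ubiquitin-tagged proteins out of membranes, complexes and chromatin, usually on their way to the proteasome. UFD-1 and NPL-4 form a heterodimer that binds the ubiquitin chain and hands the substrate to the ATPase. In C. elegans, CDC-48 with UFD-1 and NPL-4 works in the removal of misfolded proteins from the endoplasmic reticulum and in the removal of replication proteins from chromatin.

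The libraries came from chromatin immunoprecipitation with sequencing (ChIP-seq) of CEH-40, a PBC-class homeodomain factor; factors of this class bind DNA together with Hox proteins. There was 1 group with 2 biological replicates: whole young adults of strain OP232, 76 h old, grown from larvae starved at the L1 stage after bleaching. The strain carries the transgene wgIs232, in which ceh-40 is joined to TY1, EGFP and FLAG tags and which also holds unc-119, on an unc-119(ed3) background, and chromatin was sonicated and pulled down with an antibody against GFP. The promoter that drives the fusion is not stated in the labels, and whole worms were used, so fewer bound cells and weaker binding per cell cannot be told apart. With 1 group there is no comparison between conditions, and no untreated or untagged samples were analysed here. The authors' thresholded list from both replicates together (the pooled list) held 867 peaks, 840 of them nuclear, and ended at an irreproducible discovery rate (IDR) of 0.01. The ranked list held 1014 peaks with an IDR of at most 0.01, so this limit alone does not set which peaks are in the pooled list. Their conservative list held 713 peaks, of which 620 were in the pooled list. The thresholded lists of replicate 1 and replicate 2 held 296 and 287. IDR compares the ranks of the same peaks in 2 sets, and a low value means a high rank in both, not like signals alone. A weak ranked peak of npl-4.1, with 9.40 in replicate 1 and 9.29 in replicate 2, had an IDR of 0.847 between the replicates. The signal of each peak is the authors' own value with no stated unit, and no file holds read counts, so the depth behind a peak is unknown.

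Of the 5 genes, cdc-48.1 alone had a peak in the pooled list, and it had 2. Across the genome, 1271 of 19973 protein-coding genes (6.36%) had a pooled summit in the same kind of window, and 168 genes (0.841%) had at least 2. Both cdc-48.1 peaks were also in the conservative list, which reached 5.27% of genes. The 39 ranked peaks had a median signal of 23.6, against 18.8 over all ranked peaks. Signals at the strongest peak of each gene were 160.6 at cdc-48.1, 46.3 at cdc-48.2, 38.7 at ufd-1, 27.9 at npl-4.1 and 19.2 at npl-4.2, so the ATPase genes came before the 3 cofactor genes in this order.

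**Figure D1:**
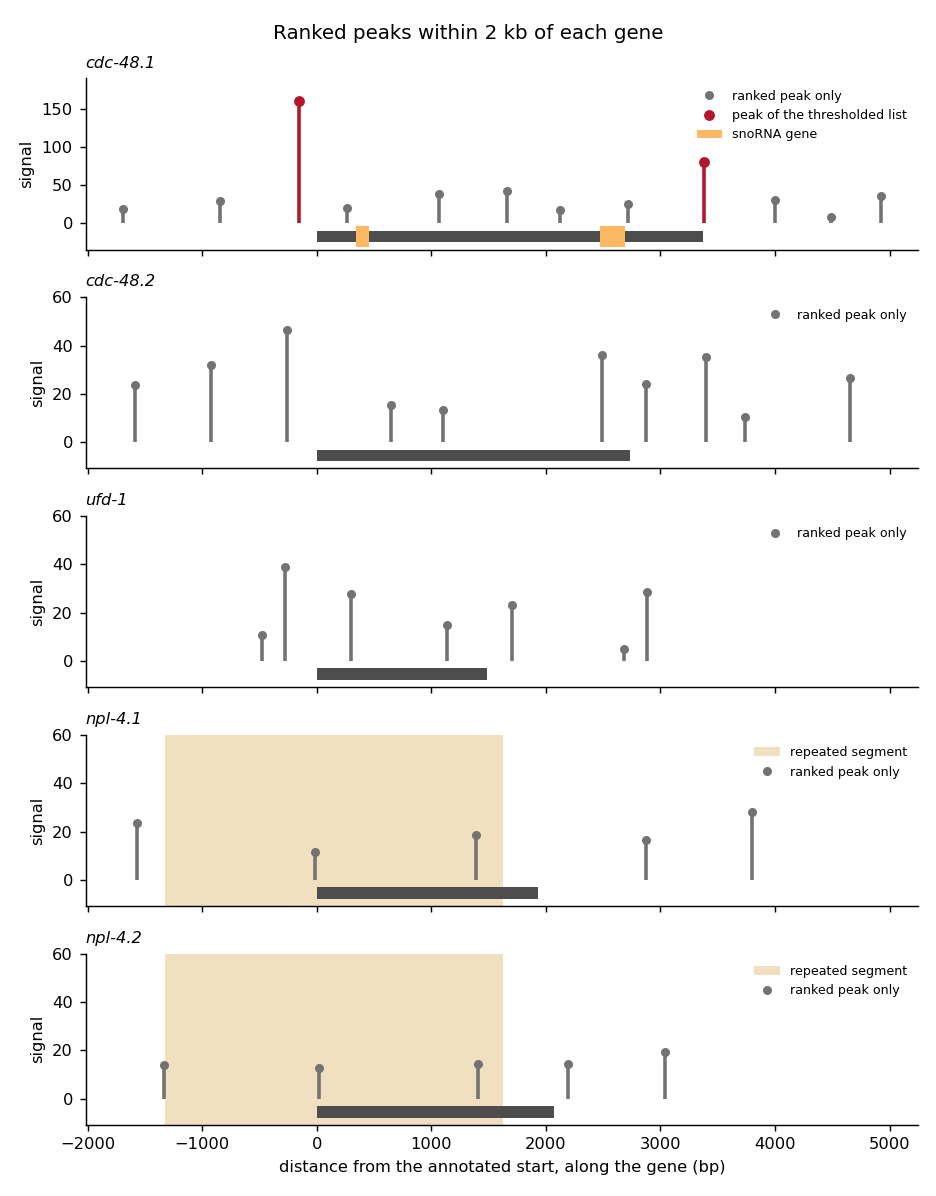
Signal (authors' value, no unit) of every ranked peak within 2 kb of each gene, placed by the distance of its summit from the annotated start along the gene in bp; the dark bar is the gene, orange boxes are snoRNA genes and shading is the segment repeated at npl-4.1 and npl-4.2. The vertical scale of the cdc-48.1 panel is wider than that of the others: its red peaks reached 160.6 and 80.5, and no peak of another gene passed 46.3.

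The ATPase gene cdc-48.1 (WBGene00007352) lies on the minus strand of chromosome II, from 10560036 to 10563407 in build WBcel235, the assembly also named ce11. Its strongest peak, chrII:10563526-10563616, had its summit 157 bp before the annotated start, in intergenic sequence. The other thresholded peak, chrII:10559905-10560144, had its summit 11 bp past the annotated 3′ end, so the 2 peaks flanked the gene. The 200 bases around the upstream summit, from the RefSeq genome of WBcel235 and on the strand of the gene (minus, chrII:10563464-10563663), are shown because they carry the highest signal of the 5 genes, with the summit base and 5 bases on either side of it in capitals. The 200 bases of cdc-48.2 around its own strongest summit (plus strand, chrII:8138138-8138337) are set beside them with the same capitals, since the 2 genes encode the same ATPase.
cdc-48.1 upstream summit: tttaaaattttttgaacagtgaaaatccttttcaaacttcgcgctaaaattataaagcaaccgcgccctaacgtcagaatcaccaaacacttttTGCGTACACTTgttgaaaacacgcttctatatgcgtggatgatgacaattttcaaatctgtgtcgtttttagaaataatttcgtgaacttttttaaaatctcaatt
cdc-48.2 upstream summit: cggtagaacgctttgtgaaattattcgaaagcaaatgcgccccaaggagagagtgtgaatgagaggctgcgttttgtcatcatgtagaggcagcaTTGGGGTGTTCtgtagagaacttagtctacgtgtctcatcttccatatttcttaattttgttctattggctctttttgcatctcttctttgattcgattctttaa

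The coding sequences of the 2 ATPase genes were identical at 78.6% of aligned bases, with a longest shared run of 35 bp. The 2 upstream windows shared no run over 10 bp. G and C made up 32.5% of the cdc-48.1 window, against 43.9 ± 7.02% (SD over the 840 nuclear windows of the pooled list). The cdc-48.1 value stood at the 3.93 percentile of those windows, near their low end. In the cdc-48.2 window, whose peak is in the ranked list only, G and C made up 40.5%. Over the 103174 nuclear ranked windows the share was 38.3 ± 7.04% (SD).

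The upstream peak of cdc-48.1 had a signal of 160.6, rank 89 of 103201, and an IDR of 0.000116 in the pooled ranking and 8.66e-05 in the list that ranks the replicates against each other. Its signal was 87.1 in replicate 1 and 69.2 in replicate 2, a mean of 78.2 ± 12.6 (SD, n = 2). The log2 ratio of replicate 2 to replicate 1 was -0.33, inside the range of -0.57 to 0.82 that held the middle of the 688 nuclear conservative peaks, from the 5th to the 95th percentile. The peak is itself one of these 688, a list already cut by IDR, so its place in this range is a description only. In each replicate's own ranked list the peak stood at the 99.8 and 99.7 percentile. It was in the thresholded list of replicate 1, which reached 2.18% of genes, and in that of replicate 2, which reached 2.12%.

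The peak past the 3′ end of cdc-48.1 had a signal of 80.5, rank 364, and an IDR of 0.00321 in the pooled ranking and 0.00106 between the replicates. Its signal was 36.7 in replicate 1 and 45.4 in replicate 2, a mean of 41.0 ± 6.17 (SD, n = 2), with a log2 ratio of 0.31. Here the replicate with the higher signal was the other one. In replicate 1's own list this peak had an IDR of 0.551 and did not reach the threshold, and in replicate 2's list it had an IDR of 0.00259 and did. By signal, the 3′ peak stood at the 98.97 percentile of replicate 1's own ranked list and at the 99.27 percentile of replicate 2's. It was thus high in both lists. Where each replicate is taken alone it passed the threshold in replicate 2 only, and it also passed where they are ranked together.

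Inside the body of cdc-48.1 the signals were lower. The next peaks had signals of 42.5 and 38.2, with summits in coding sequence 1659 and 1071 bp after the start and IDRs of 0.109 and 0.105, or 0.364 and 0.359 in the list that ranks the replicates against each other. The remaining 8 ranked peaks of the gene ran from 8.23 to 36.4. On the inner side of the IDR limit of 0.01, the nearest peak of the 5 genes was the one past the 3′ end of cdc-48.1, whose signal of 80.5 was above the pooled list's median of 68.1. On the outer side the nearest was the peak at 46.3 upstream of cdc-48.2, with an IDR of 0.0303.

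Introns of cdc-48.1 hold 2 small nucleolar RNA (snoRNA) genes, C06A1.8 and C06A1.9, and snoRNAs guide the modification of other RNAs. Of the 840 nuclear pooled summits, 284 (33.8%) lay within 1 kb of a tRNA or snoRNA gene. For snoRNA genes alone the count was 71 (8.45%). The upstream summit was 500 bp from C06A1.9, and the 3′ summit was 692 bp from C06A1.8. The peaks nearest to the snoRNA genes were weak: a signal of 25.4 at 31 bp from C06A1.8, and a signal of 19.6 at 78 bp from C06A1.9. Of 192 protein-coding genes that hold a snoRNA gene, 63 (32.8%) had a pooled summit in their window. The strongest summit was under 500 bp from the snoRNA in 30 of them and 500 bp or more away in 33. With its summit at 500 bp, cdc-48.1 is on the edge and is counted among the 33. The part of the snoRNA genes in the cdc-48.1 peaks was not tested. No tRNA gene lay within 254943 bp of either summit.

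The letters of sites known for PBC, Hox and MEIS proteins were searched on both strands in the 200 bases around each summit. TGATNNAT, the composite form bound by PBC proteins with Hox partners, TGATTGAT, which is one case of it, TGACAG, a MEIS form, and TAATTA, a homeodomain form, were absent from the windows of both cdc-48.1 peaks and of the strongest cdc-48.2, ufd-1 and npl-4.1 peaks. In the 840 nuclear windows of the pooled list, TGATNNAT was present in 8.10%, TGATTGAT in 0.714%, TGACAG in 7.14% and TAATTA in 5%. The cdc-48.2, ufd-1 and npl-4.1 peaks are in the ranked list only. Over all nuclear ranked windows the shares were 14.8%, 1.40%, 7.40% and 7.85%, in the same order. With 400 bases, the 3′ window of cdc-48.1 held TGATTGAT, as did 24 of the 840 windows (2.86%). At that width the strongest ufd-1 window also held TGATNNAT, and the strongest cdc-48.2 window held TAATTA. With 400 bases, TGATNNAT was present in 28.3% of nuclear ranked windows and 20.2% of the pooled ones. For TAATTA these shares were 15.5% and 14.9%. The stretch past the end of cdc-48.1 in RefSeq (minus strand, chrII:10559831-10560030) is shown with its TGATTGAT site in capitals. The site reads as its reverse complement because the strand of the gene is printed.
cdc-48.1 past the 3′ end: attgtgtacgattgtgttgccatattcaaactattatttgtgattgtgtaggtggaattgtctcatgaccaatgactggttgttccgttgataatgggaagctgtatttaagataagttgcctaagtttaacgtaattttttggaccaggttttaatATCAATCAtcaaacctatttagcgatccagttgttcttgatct

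The site lay 152 bp from the 3′ summit and 158 bp past the RefSeq end of the gene. At npl-4.2, TGACAG was in the 200-base window of the strongest peak, with a signal of 19.2, and TGATNNAT and TAATTA were in that of the next, with a signal of 14.5. These peaks are in the ranked list only, and over all 103174 nuclear ranked windows TGACAG was present in 7.40%, TGATNNAT in 14.8% and TAATTA in 7.85%.

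The second ATPase gene, cdc-48.2 (WBGene00008053), lies on the plus strand of chromosome II, from 8138496 to 8141230, and its 3′ end overlaps that of ints-11. Its strongest peak, in the window printed above, had its summit 258 bp before the start and a signal of 46.3. That was rank 2120, the 97.9 percentile of ranked peaks, and it had an IDR of 0.0303, outside the limit of the pooled list; between the replicates its IDR was 0.0552. Its signal was 24.5 in replicate 1 and 21.6 in replicate 2, a mean of 23.1 ± 2.05 (SD, n = 2). Both ATPase genes thus had their strongest peak in the intergenic sequence shortly before the start, with a signal at cdc-48.1 above that at cdc-48.2 in each replicate. The other 9 ranked peaks of cdc-48.2 ran from 10.4 to 36.3, and the highest of them was in its coding sequence, 2493 bp after the start. With 5 kb flanks, a pooled peak with a signal of 62.8 inside rpl-10, 2828 bp from cdc-48.2, would be counted, and 10.7% of all genes had a pooled summit in windows of that size.

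Among cofactors, ufd-1 (WBGene00006733; chromosome IV, 12329408 to 12330890, minus strand) had its strongest peak 273 bp before the start, with a signal of 38.7 and an IDR of 0.174 in the pooled ranking and 0.542 between the replicates. The upstream gene F19B6.1 ends 85 bp away on the same strand, and this summit lay in its 3′ UTR. The peak had a signal of 26.4 in replicate 1 and 13.4 in replicate 2, a log2 ratio of -0.98, which is below the 5th percentile of the conservative peaks. The same replicate 1 peak is also matched in the authors' list to a weaker ranked peak 473 bp before the start, so these values are not independent. The ranked peaks in F19B6.3, 2885 and 2683 bp after the start, share the same matched peaks in both replicates, 7.33 in replicate 1 and 20.7 in replicate 2. No peak of ufd-1 was in a thresholded list.

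**Figure D2:**
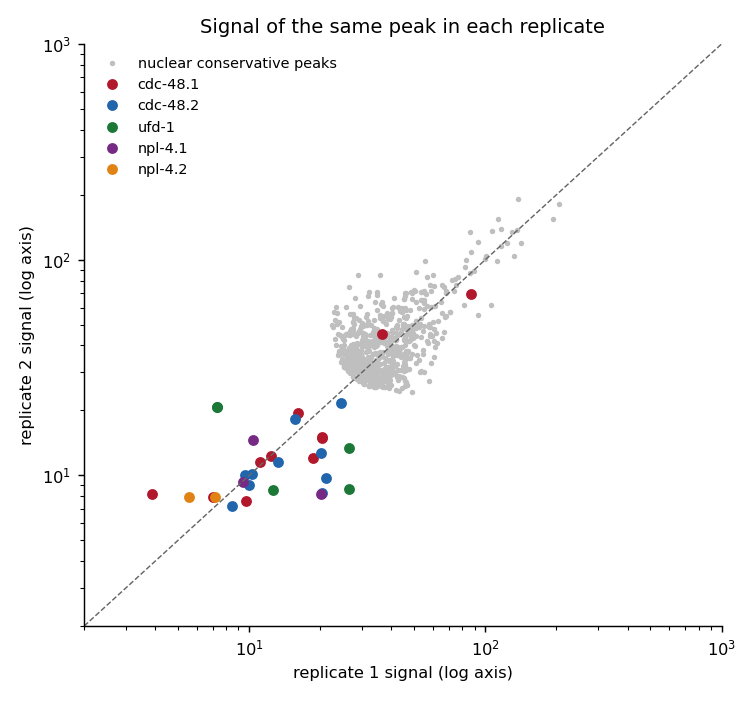
Signal of each ranked peak of the 5 genes that has a value in both replicates (31 of 39, with 30 different pairs of values since 2 ufd-1 peaks share theirs), replicate 1 across and replicate 2 up, both on log axes, over the 688 nuclear conservative peaks in grey; the dashed line marks equal signals. The 2 thresholded cdc-48.1 peaks, which are themselves among the conservative peaks, lie among the grey points on opposite sides of the line, and the other points lie below them.

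The genes npl-4.1 (WBGene00019120; 5631351 to 5633284) and npl-4.2 (WBGene00019121; 5622889 to 5624959) lie on the plus strand of chromosome II, with starts 8462 bp apart. Their coding sequences were identical at 1579 of 1587 bases (99.5%). The identity went past the genes: a segment of 2949 bp, chrII:5630026-5632974 at npl-4.1 and chrII:5621564-5624512 at npl-4.2, was the same in the RefSeq genome but for 2 bases. It began 1325 bp before both starts, so the sequence before the start could not be told apart between the 2 genes. The 120 bases before the start, alike in both copies, are shown from npl-4.1 (plus strand, chrII:5631231-5631350) with the base at its summit nearest to the start and 5 bases on either side in capitals. The bases at the far edge of the segment (plus strand, chrII:5632935-5633014 at npl-4.1 and chrII:5624473-5624552 at npl-4.2) are shown with the last 40 shared bases in capitals, to mark where the copies part.
npl-4.1 and npl-4.2 before the start: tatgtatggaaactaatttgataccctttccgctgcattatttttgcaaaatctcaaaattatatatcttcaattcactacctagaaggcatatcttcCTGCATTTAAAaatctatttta
npl-4.1 edge: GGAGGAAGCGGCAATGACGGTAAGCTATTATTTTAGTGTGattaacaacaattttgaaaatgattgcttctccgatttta
npl-4.2 edge: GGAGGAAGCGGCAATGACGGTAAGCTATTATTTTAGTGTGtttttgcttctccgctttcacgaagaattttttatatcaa

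Peaks in the repeated segment were weak in both genes. At npl-4.1 it held ranked peaks with signals of 11.5, 17 bp before the start, and 18.6, 1391 bp after it. At npl-4.2 it held ranked peaks with signals of 12.9, 18 bp after the start, and 14.4, 1405 bp after it. The ranked list of each replicate had 0 summits in either copy. In the ranked list made from both replicates, the peak 1391 bp after the npl-4.1 start nevertheless carried replicate signals of 9.40 and 9.29, and the one 1405 bp after the npl-4.2 start carried 5.56 and 7.96, so low signal was recorded there in both replicates. The strongest peaks of both genes lay outside the segment: the signal of 27.9 at npl-4.1 was 1868 bp past the gene, in the coding sequence of F59E12.8, and the signal of 19.2 at npl-4.2 was 971 bp past the gene.

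Sequence repeats bear on how many reads could be placed there. Of all 50-base words in the gene, 17.4% at npl-4.1 and 20.5% at npl-4.2 occurred once in the genome, against 100% at cdc-48.1, cdc-48.2 and ufd-1. In the 200-base windows of the 4 ranked peaks in the repeat, 33.1% of the words occurred once (50 of 151 in each). A word there can occur once only if it covers a base that differs between the copies. All 4 windows thus held such a base, so they are not typical of the repeat. The windows of both thresholded cdc-48.1 peaks, and of the strongest peak of each other gene, held words that occurred once at all positions. No source used here gives the read length or the treatment of reads with several places, and the part of the repeat in the low npl-4.1 and npl-4.2 signals was not tested.

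Set among all protein-coding genes by their strongest ranked signal, cdc-48.1 stood at the 99.7 percentile, and 55 other genes had a higher signal. A further 2 had the same value, so 57 others were at or above it. Against genes of like length the percentile was 99.6. The percentile was 86.1 for cdc-48.2, 70.9 for ufd-1, 29.9 for npl-4.1 and 11.0 for npl-4.2. Genes with no ranked peak (1626) were counted at 0 there, and among genes with a ranked peak the percentiles were 99.7 for cdc-48.1, 84.9 for cdc-48.2, 68.3 for ufd-1, 23.7 for npl-4.1 and 3.07 for npl-4.2. Over all genes the median was 33.0, with quartiles of 26.5 and 40.2 and a 99th percentile of 105. The signals of cdc-48.2 and ufd-1 were thus above the median of all genes and those of npl-4.1 and npl-4.2 below it.

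**Figure D3:**
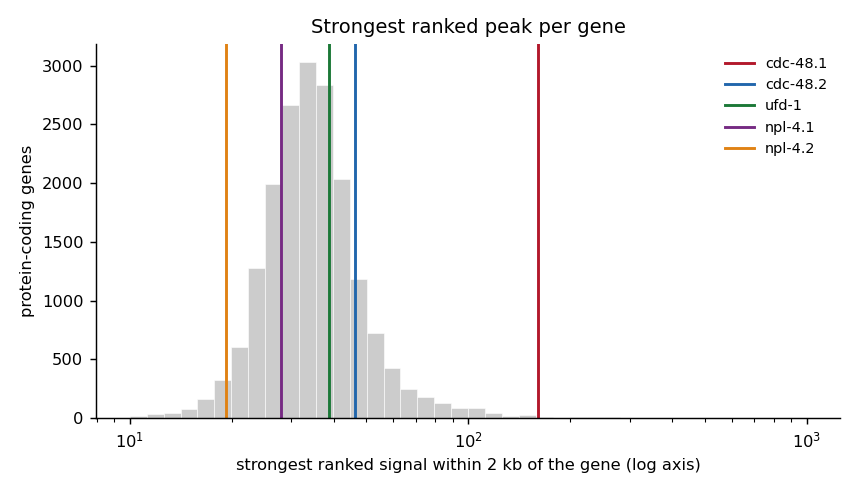
Number of protein-coding genes by the strongest ranked signal in the gene or within 2 kb of it, on a log axis. Genes with no ranked peak in that window (1626 of 19973) and the few genes with signals below the lowest bar are not drawn. Coloured lines mark the 5 genes. The line of cdc-48.1 at 160.6 stands in the far upper tail, and the other 4 fall between 19.2 and 46.3.

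Genes like cdc-48.1 were sought among 824 others with a pooled summit more than 1 kb away from small RNA genes and a signal in each replicate. Both cdc-48.1 summits lay nearer than that to a snoRNA gene, so cdc-48.1 itself did not meet this rule. Likeness was the Euclidean distance between the log2 signals of the strongest pooled peak, in the pooled list and in each replicate. The most alike were dos-3, zip-2 and fezf-1. The genes dos-3 and zip-2 share 1 peak, with a signal of 156.6 and replicate signals of 73.3 and 71.8 (distance 0.256). The peak of fezf-1 had a signal of 171.3 and replicate signals of 86.0 and 86.8 (distance 0.339). The likeness rests on the same 2 libraries.

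Other genes of the pathway were taken from 5 lists of 57 symbols, of which 56 were found in the annotation. Of these 56 genes, 10 had a pooled summit and 9 a conservative one, to be read against the 6.36% and 5.27% of all genes. The counts of pooled summits in each single list, given below, are small and are to be read against the same 6.36%. The count rests on both replicates together: 2 of the 56, atad-3 and ubq-1, had a summit in the thresholded list of replicate 1, and 2, ubc-6 and ubxn-3, in that of replicate 2. Those lists reached 2.18% and 2.12% of all genes, so the pathway genes lie near the background there. Their median strongest signal was 40.2, against 33.0 over all genes. Among 10 other CDC-48 cofactors, only ubxn-3 had a pooled summit; UBXN-3 is an adaptor that helps CDC-48 act on chromatin. The ubxn-3 peak had a signal of 101.7, with 39.7 in replicate 1 and 54.2 in replicate 2, and its summit was 263 bp past the gene. No other cofactor passed the threshold, and the highest of them were atx-3, a deubiquitinase, at 53.3, and ufd-2, a factor that lengthens ubiquitin chains, at 52.3.

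In the list for degradation of proteins from the endoplasmic reticulum, 2 of 10 genes had a pooled summit. The gene ubc-6, for a ubiquitin-conjugating enzyme of the reticulum, had a signal of 86.3 with a summit 270 bp before its start, at 43.4 in replicate 1 and 39.0 in replicate 2. The gene marc-6, for a ubiquitin ligase of the same membrane, had a signal of 61.1, with its summit inside the tRNA gene C35E7.t1. The 2 peaks differed in where they lay, one before a start and far from small RNA genes and the other in a tRNA gene.

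Of 7 genes for ubiquitin and its shuttles, 3 had a pooled summit. They were ubq-1, for polyubiquitin, at 67.9, ubq-2, for ubiquitin joined to a ribosomal protein, at 58.4, and rpn-10, for a ubiquitin receptor of the proteasome, at 46.7. The rpn-10 peak was not in the conservative list, and its signal was 9.83 in replicate 1 and 40.01 in replicate 2. Of 12 partners and substrates of CDC-48 linked to chromatin, lrr-1, for a substrate receptor of a ubiquitin ligase, alone had a pooled summit, at 80.0 inside the tRNA gene F33G12.t1.

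Of 17 other AAA ATPases, 3 had a pooled summit. The gene atad-3, for a mitochondrial ATPase, had a signal of 90.2 with a summit 400 bp before its start, at 45.2 in replicate 1 and 42.5 in replicate 2. The proteasome ATPase genes rpt-1 and rpt-2 had signals of 59.2 and 57.8, with summits 51 bp and 257 bp from a small RNA gene. Counting only peaks more than 1 kb away from rRNA, snRNA, snoRNA and tRNA genes left 6 of the 56 pathway genes, against 841 of all 19973 protein-coding genes (4.21%) under the same restriction. The 6 were ubxn-3, ubc-6, ubq-1, ubq-2, rpn-10 and atad-3. The same restriction left 0 of the 5 CDC-48 genes, since both cdc-48.1 summits lay within 1 kb of its own snoRNA genes.

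**Figure D4:**
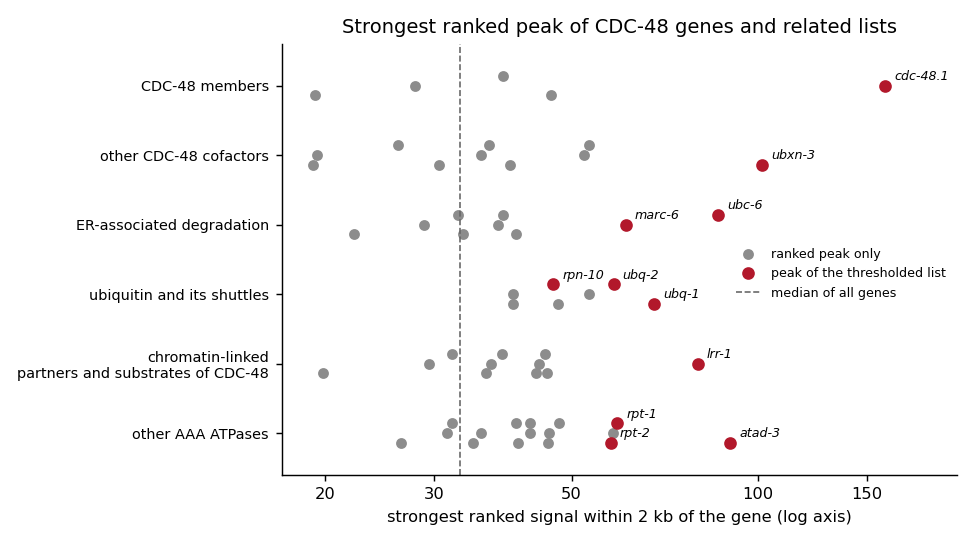
Strongest ranked signal per gene on a log axis for the 5 CDC-48 genes (top row) and the 5 lists of related genes; red points have a pooled thresholded peak, grey points have ranked peaks only, and the dashed line is the median of all protein-coding genes (33.0); rnf-5, cdt-1 and prx-6, with no ranked peak, are not drawn. The point of cdc-48.1 at 160.6 lies to the right of all others drawn, the next being ubxn-3 at 101.7.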

How the data were processed

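Coordinates are on ce11, per the labels; genes are from Ensembl release 115 and sequence and tRNA names from RefSeq, both for WBcel235. No source used here names the aligner, the peak caller or their versions. The authors deposited ranked, thresholded and conservative peak lists with a signal per peak, a −log10 IDR and a score that follows it; the authors gave the signal no unit, and it was used only within a list. IDR was computed back from the −log10 column. The ranked list of both replicates held 77932 peaks. Its first signal column matched replicate 1's own list exactly at 35740 peaks and replicate 2's at 0, and the second matched replicate 2's at 41183. Values with no exact match were assigned to a replicate by their column. The lists hold no counts, so no interval for counting error could be given, and the spread between replicates is given as an SD.

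Summits were counted in each gene with 2 kb flanks, and percentiles are of ranked signals. Coding sequences were aligned with Biopython 1.88, and tables made with Python 3.11.15 and pandas 2.3.3. The counting was checked on simulated peaks. No test was made: there is 1 group, and the members and the pathway lists were chosen with earlier results of these data known. Named genes are the members, list genes with a pooled summit (at most 4 per list) and, for cdc-48.1, the 3 most alike; atx-3 and ufd-2 were named after their values were seen. Alternatives were other flanks, windows near starts, stricter IDR, the conservative list and each replicate alone.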

Additional observations from a re-analysis of the deposited data

How the results depend on the processing

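The number of CDC-48 genes with a thresholded peak was 1, and it became 2 with 5 kb flanks, where a peak of signal 62.8 inside rpl-10, 2828 bp from cdc-48.2, was taken in. It became 0 when only peaks more than 1 kb away from rRNA, snRNA, snoRNA and tRNA genes were counted, an alternative chosen after the data were seen. The number of pathway genes with a thresholded peak was 10, it was 2 with either replicate left out (lowest 2, highest 2), and it was 6 away from small RNA genes. Lists of single replicates are shorter by construction. Of 52 alternatives over all values, 23 moved the value beyond a tolerance and 29 did not. The tolerance was 1.5 times for counts and the SD between the replicates for signals and percentiles, so a value such as the 10 pathway genes, 9 with 1 kb flanks or in the conservative list, is among the 29. Signals near npl-4.1 and npl-4.2 depend on the flank: within 1 kb of a start the strongest were 11.5 and 12.9. No paired analysis was possible because there is 1 group. Depth is unknown, which limits what absence from a list can mean.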
